A study of Mus musculus with 16 samples.

Results

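The genes described are 10 members of the Notch pathway of the vessel wall, taken as the rows of the count and FPKM tables whose gene name is Notch1, Notch2, Notch3, Jag1, Jag2, Dll4, Hey1, Hey2, Heyl or Hes1. All 10 were found among 54532 genes, each in 1 row, and all 10 passed the filter on low counts in every comparison. Whole aortas of 16 male C57BL/6J mice were sequenced, 1 library per mouse and 4 mice per group. Mice were 12 weeks old at the first surgery. In 5/6 nephrectomy (5/6 Nx), most of the left kidney is put out of function and the right kidney is then removed, which leaves the mouse with chronic kidney disease. After 2 weeks of recovery, the mice received their diets for 4 weeks (the deposited labels state 30 days). The 5/6 Nx-HPi-Lp diet held 2% phosphorus and 2.5% protein. The 5/6 Nx-HPi-Hp diet held 2% phosphorus and 18% protein, while the 5/6 Nx-LPi-Lp mice were given 2.5% protein with only 0.3% phosphorus. Sham mice kept their kidneys and ate the HPi-Lp diet, so that low protein with high phosphorus is shared by both groups, and no Sham mice on another diet are in these data.

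Notch signaling passes between cells that touch. A Jagged or Delta-like ligand on one cell binds a Notch receptor on its neighbor, the receptor is cut, and its freed intracellular part enters the nucleus, joins the DNA-binding protein RBPJ and switches on the Hes and Hey genes, which encode transcriptional repressors. In arteries, endothelial ligands and NOTCH3 of the smooth muscle cells form a well-known pair that helps keep medial smooth muscle mature, while DLL4 is a ligand of arterial and sprouting endothelium.

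Library totals ranged from 13659525 to 57276915 counts, and the lowest count of any of the 10 genes in a library was 78. Counts on mitochondrially encoded genes made up 4.18% to 6.34% of the Sham libraries and 9.50% to 29.0% of the 5/6 Nx libraries. Smooth muscle markers (7 genes, among them Myh11 and Acta2) were present in all libraries, but their summed level differed widely, at 7882 to 9939 FPKM in Sham, 848 to 1957 in 5/6 Nx-HPi-Lp, 2187 to 8737 in 5/6 Nx-HPi-Hp and 2732 to 6560 in 5/6 Nx-LPi-Lp mice. Endothelial markers (10 genes) summed to 202 to 246, 248 to 357, 221 to 311 and 210 to 264 FPKM in the same order. In a whole-tissue library, fewer cells of a type and less RNA per cell cannot be told apart, which applies to every gene described here.

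Compared with Sham mice, which differ only by the surgery, 5/6 Nx-HPi-Lp mice showed upregulation of the ligands Jag2 and Dll4 and of the target Hey1, and downregulation of the targets Heyl and Hey2. A differentially expressed gene (DEG) had an adjusted p of at most 0.05 and a change of at least 2-fold by edgeR's quasi-likelihood test. With n = 4 libraries per group, 5 of the 10 genes were DEGs, 3 upregulated and 2 downregulated, where 22.2% of the 16513 genes tested were DEGs (15.0% upregulated and 7.18% downregulated). Notch2 fell as well, by less than 2-fold, so that 6 of 10 genes passed by adjusted p alone, 3 higher and 3 lower, against 42.9% of all genes (22.7% higher and 20.2% lower). The median log2 fold change was 0.06 over the 10 genes and -0.00275 over all genes, and the 2 groups of 4 libraries did not overlap in FPKM for 6 of the 10, beside 41.8% of all genes. Notch1, Notch3, Jag1 and Hes1 did not pass. Against the other 5/6 Nx groups, Heyl was the only DEG among the 10.

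**Figure D1:**
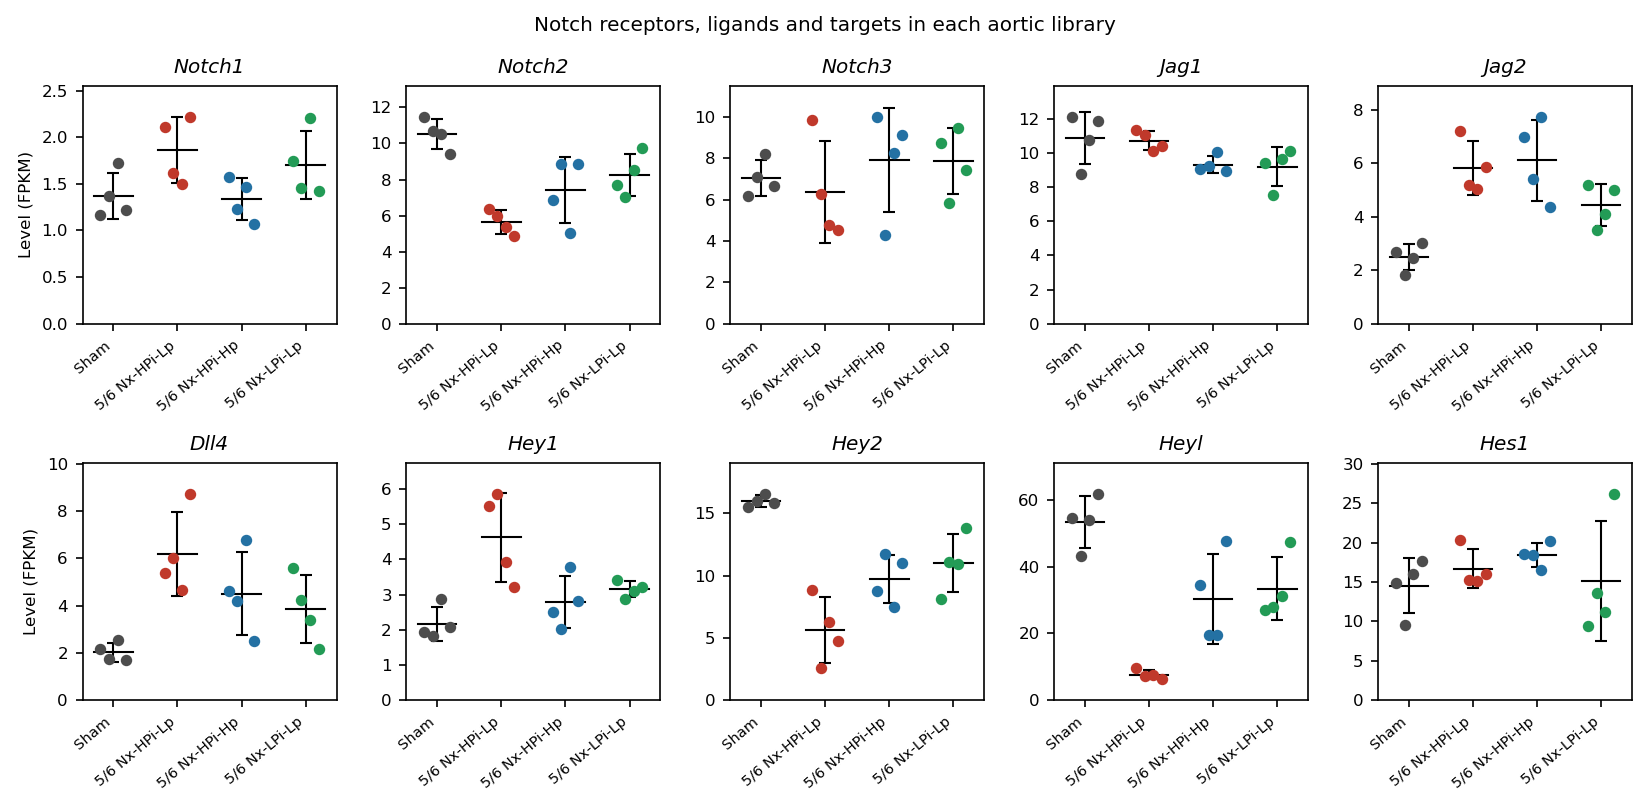
Deposited FPKM of the 10 genes on linear axes, with 1 point per library, bars at group means and whiskers of 1 SD (n = 4). FPKM is fragments per length of gene, scaled between libraries by size factors (medians of gene ratios) and not by total counts. The 5/6 Nx-HPi-Lp libraries hold Heyl at 6.28 to 9.51 FPKM, below the other 12 libraries, and Jag2 and Dll4 above the Sham libraries, while Notch3 and Hes1 overlap across the 4 groups.

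Among the receptors, Notch2 was the most abundant in Sham aortas and fell in 5/6 Nx-HPi-Lp mice. It encodes a receptor made by many cells of the vessel wall (ENSMUSG00000027878, mm10 chromosome 3, 98013527 to 98150361, plus strand). Its level in the Sham libraries was 11.5, 10.7, 10.5 and 9.42 FPKM, and in the 5/6 Nx-HPi-Lp libraries 6.38, 5.95, 5.39 and 4.88 FPKM. The 5/6 Nx-HPi-Hp libraries held 6.87, 8.87, 5.04 and 8.85 FPKM and the 5/6 Nx-LPi-Lp libraries 7.69, 7.01, 8.55 and 9.76 FPKM. All 5/6 Nx-HPi-Lp libraries lay below all Sham and all 5/6 Nx-LPi-Lp libraries, and they overlapped with the 5/6 Nx-HPi-Hp libraries through the third of those. The log2 fold change of Notch2 was -0.93 ± 0.11 (SE, adjusted p = 0.000187) against Sham, -0.55 ± 0.14 (adjusted p = 0.0270) against 5/6 Nx-LPi-Lp and -0.40 ± 0.20 (adjusted p = 0.2101) against 5/6 Nx-HPi-Hp. The call against 5/6 Nx-LPi-Lp lay near the threshold and was lost in 4 of the 8 fits that leave out 1 library. In these fits, which dropped replicate 3 or 4 of either group, adjusted p lay between 0.0612 and 0.0877. The log2 fold change stayed between -0.645 and -0.435 over the 8 fits, so the direction of the fall did not depend on any 1 library.

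Notch3, whose receptor is the typical Notch of arterial smooth muscle and which is mutated in an inherited small-vessel disease, did not pass in any comparison (ENSMUSG00000038146, chromosome 17, 32120820 to 32166880, minus strand). The Sham libraries held 6.17, 7.12, 8.21 and 6.64 FPKM, the 5/6 Nx-HPi-Lp libraries 9.85, 6.29, 4.79 and 4.53, the 5/6 Nx-HPi-Hp libraries 9.997, 4.28, 8.25 and 9.13, and the 5/6 Nx-LPi-Lp libraries 8.74, 5.84, 9.47 and 7.44. The first 5/6 Nx-HPi-Lp library lay above all Sham libraries and the third and the fourth lay below them. Against Sham, the log2 fold change of Notch3 was -0.18 ± 0.23 (SE, adjusted p = 0.569) with all libraries and -0.45 (adjusted p = 0.0285) without 5/6 Nx-HPi-Lp replicate 1, so that 1 library decided this call. It was -0.32 ± 0.31 (adjusted p = 0.508) against 5/6 Nx-HPi-Hp and -0.31 ± 0.25 (adjusted p = 0.415) against 5/6 Nx-LPi-Lp.

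Notch1, the receptor best known from arterial endothelium (ENSMUSG00000026923, chromosome 2, 26457903 to 26516663, minus strand), was the lowest of the 10 genes in every group. Its levels ran from 1.17 to 1.72 FPKM in Sham, 1.503 to 2.22 in 5/6 Nx-HPi-Lp, 1.07 to 1.57 in 5/6 Nx-HPi-Hp and 1.42 to 2.205 in 5/6 Nx-LPi-Lp libraries, and all groups overlapped. Its log2 fold change against Sham was 0.41 ± 0.17 (SE, adjusted p = 0.0821). It passed without Sham replicate 3 (0.51, adjusted p = 0.0461) and without 5/6 Nx-HPi-Lp replicate 3 (0.51, adjusted p = 0.0435). Of the summed FPKM of these 3 receptors, which leaves out Notch4, Notch2 held 55.7% ± 3.97 (SD, n = 4) in Sham and 41.5% ± 4.80 in 5/6 Nx-HPi-Lp mice, Notch3 37.1% ± 3.13 and 44.8% ± 6.53, and Notch1 7.21% ± 0.903 and 13.8% ± 3.57.

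The ligands Jag2 and Dll4 moved in the other direction from Notch2. Jag2, a Jagged ligand (ENSMUSG00000002799, chromosome 12, 112907819 to 112929776, minus strand), was at 2.68, 1.82, 2.48 and 3.01 FPKM in the Sham libraries and at 7.22, 5.19, 5.05 and 5.86 FPKM in the 5/6 Nx-HPi-Lp libraries. It was at 6.98, 5.41, 7.74 and 4.36 FPKM in the 5/6 Nx-HPi-Hp libraries and at 5.21, 3.51, 4.09 and 5.00 FPKM in the 5/6 Nx-LPi-Lp libraries. Every 5/6 Nx library, whatever its diet, lay above every Sham library. Upregulation of Jag2 against Sham was 1.19 ± 0.18 on the log2 scale (SE, adjusted p = 0.000581), and the differences of 5/6 Nx-HPi-Lp from 5/6 Nx-HPi-Hp (-0.07 ± 0.20, adjusted p = 0.845) and from 5/6 Nx-LPi-Lp (0.38 ± 0.17, adjusted p = 0.134) did not pass.

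Dll4, the Delta-like ligand of arterial and sprouting endothelium (ENSMUSG00000027314, chromosome 2, 119325784 to 119335962, plus strand), showed the largest rise of the 10 genes against Sham. The Sham libraries held 2.15, 1.76, 2.56 and 1.69 FPKM and the 5/6 Nx-HPi-Lp libraries 5.39, 6.00, 4.68 and 8.74 FPKM. In the 5/6 Nx-HPi-Hp libraries the levels were 4.60, 4.19, 6.76 and 2.49 FPKM and in the 5/6 Nx-LPi-Lp libraries 5.60, 4.25, 3.38 and 2.17 FPKM. The fourth library of each of these last groups lay within the Sham range, and the others lay above it. The log2 fold change of Dll4 was 1.57 ± 0.22 (SE, adjusted p = 0.000461) against Sham, 0.47 ± 0.30 (adjusted p = 0.311) against 5/6 Nx-HPi-Hp and 0.69 ± 0.29 (adjusted p = 0.122) against 5/6 Nx-LPi-Lp. The opposite-strand gene Gm14207 overlaps Dll4 and had 7.45% as many counts, and whether reads were counted by strand is not given in the sources used here.

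Jag1, the most abundant ligand, is made by endothelium and smooth muscle alike and showed little change (ENSMUSG00000027276, chromosome 2, 137081456 to 137116644, minus strand). It ranged from 8.77 to 12.1 FPKM in Sham, 10.1 to 11.3 in 5/6 Nx-HPi-Lp, 8.93 to 10.02 in 5/6 Nx-HPi-Hp and 7.54 to 10.1 in 5/6 Nx-LPi-Lp libraries. The log2 fold change was -0.05 ± 0.12 (SE, adjusted p = 0.750) against Sham, 0.20 ± 0.12 (adjusted p = 0.283) against 5/6 Nx-HPi-Hp, where the groups did not overlap, and 0.22 ± 0.12 (adjusted p = 0.236) against 5/6 Nx-LPi-Lp. Summed over the 3 ligands, the level was 12.3 to 16.9 FPKM in Sham and 19.8 to 25.0 FPKM in 5/6 Nx-HPi-Lp libraries. Jag1 made up 70.5% ± 1.66 (SD, n = 4) of that sum in Sham and 47.4% ± 4.13 in 5/6 Nx-HPi-Lp mice, while Dll4 went from 13.3% ± 2.53 to 27.0% ± 5.63 and Jag2 from 16.1% ± 1.45 to 25.6% ± 3.21.

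Heyl separated the 5/6 Nx-HPi-Lp mice from every other group. It encodes a Hey-family repressor that is a standard readout of Notch3 in smooth muscle and pericytes (ENSMUSG00000032744, chromosome 4, 123233556 to 123249875, plus strand). The Sham libraries held 54.7, 43.2, 53.8 and 61.9 FPKM, more than any other of the 10 genes. The 5/6 Nx-HPi-Lp libraries held 9.51, 7.20, 7.64 and 6.28 FPKM, which is below every other library of the series. The 5/6 Nx-HPi-Hp libraries held 34.6, 19.7, 19.4 and 47.6 FPKM and the 5/6 Nx-LPi-Lp libraries 27.0, 28.0, 31.1 and 47.3 FPKM. In both of these groups the fourth library reached the Sham range. Downregulation of Heyl in 5/6 Nx-HPi-Lp mice was -2.83 ± 0.16 on the log2 scale against Sham (SE, adjusted p = 1.22e-05), -1.99 ± 0.31 against 5/6 Nx-HPi-Hp (adjusted p = 0.00551) and -2.13 ± 0.22 against 5/6 Nx-LPi-Lp (adjusted p = 0.000950). It remained a DEG in all 3 comparisons when any 1 library was left out, with values from -2.94 to -2.74, from -2.18 to -1.68 and from -2.24 to -1.89. The smooth muscle markers moved with it, since 7 of 7 were downregulated against Sham (median -2.80), 5 of 7 against 5/6 Nx-HPi-Hp (median -1.70) and 6 of 7 against 5/6 Nx-LPi-Lp (median -1.64).

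**Figure D2:**
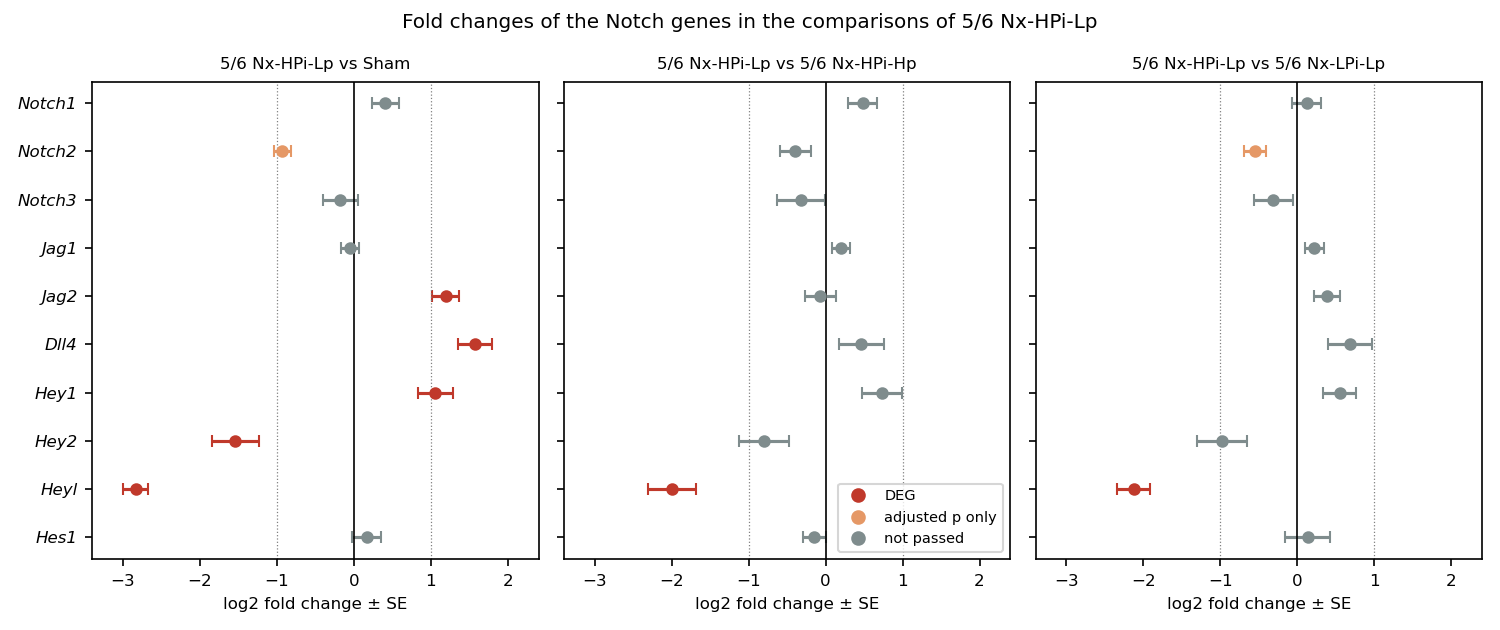
Log2 fold changes (points) with SE (whiskers) of the 10 genes from edgeR, one panel for each comparison of 5/6 Nx-HPi-Lp mice, with dotted lines at a 2-fold change. Heyl is the only gene beyond the dotted lines in all 3 panels, at -2.83, -1.99 and -2.13.

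Hey2, a Hey-family repressor active in arterial identity and in smooth muscle (ENSMUSG00000019789, chromosome 10, 30832359 to 30842801, minus strand), was second to Heyl in the size of its fall against Sham. Its level was 15.5, 15.998, 16.6 and 15.9 FPKM in the Sham libraries and 8.84, 2.61, 6.31 and 4.72 FPKM in the 5/6 Nx-HPi-Lp libraries. The 5/6 Nx-HPi-Hp libraries held 8.75, 11.7, 7.50 and 11.002 FPKM and the 5/6 Nx-LPi-Lp libraries 8.11, 11.1, 10.9 and 13.8 FPKM. No 5/6 Nx library reached the Sham range, and the first 5/6 Nx-HPi-Lp library lay within the ranges of the other 5/6 Nx groups. The log2 fold change of Hey2 was -1.54 ± 0.30 (SE, adjusted p = 0.00276) against Sham. Against 5/6 Nx-HPi-Hp it was -0.80 ± 0.33 (adjusted p = 0.132) and against 5/6 Nx-LPi-Lp -0.98 ± 0.33 (adjusted p = 0.0610). Without 5/6 Nx-HPi-Lp replicate 1 these differences became -1.10 (adjusted p = 0.0446) and -1.26 (adjusted p = 0.0237). With all libraries kept, Hey2 passed against both groups when 16 libraries shared a fit (adjusted p = 0.0410 and 0.0150), and against 5/6 Nx-LPi-Lp also with DESeq2 (adjusted p = 0.0184) and with no count filter (adjusted p = 0.0358).

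Promoter sequence (RefSeq, GRCm38.p6, from 250 bases before to 50 after the listed start) was given for 7 of the 10 genes, not for Hey1, Heyl and Hes1. Searched on both strands for GTGGGAA, the consensus of RBPJ, 1 of the 7 promoters held it, that of Hey2, which held it at 2 places, and 6.38% of 32851 promoters of the same length held it. The shorter core TGGGAA, which is contained in GTGGGAA, was found in the same promoter alone and in 25.6% of all promoters. CACGTG, an E-box read by Hes and Hey proteins, and the CArG box of smooth muscle genes were found in 0 of 7 against 7.15% and 1.63% of all promoters. The Hey2 promoter is shown because both matches lie in it, in capitals, the first as the reverse complement TTCCCAC at chr10:30842984-30842990 and the last at chr10:30842781-30842787, which begins 4 bases before the listed start. A match in letters is no proof of binding. The stretch shown is chr10:30842781-30843033, minus strand, 253 bases.
Hey2: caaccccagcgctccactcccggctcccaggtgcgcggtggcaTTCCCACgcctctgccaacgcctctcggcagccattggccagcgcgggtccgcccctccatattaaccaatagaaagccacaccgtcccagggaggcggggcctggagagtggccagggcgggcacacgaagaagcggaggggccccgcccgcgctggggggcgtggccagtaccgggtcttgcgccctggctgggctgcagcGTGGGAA

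Hey1, the third Hey gene (ENSMUSG00000040289, chromosome 3, 8663359 to 8667256, minus strand), moved against Heyl and Hey2. It was at 1.92, 1.83, 2.89 and 2.07 FPKM in the Sham libraries and at 5.51, 5.87, 3.94 and 3.21 FPKM in the 5/6 Nx-HPi-Lp libraries. The 5/6 Nx-HPi-Hp libraries held 2.52, 2.03, 3.77 and 2.83 FPKM and the 5/6 Nx-LPi-Lp libraries 3.42, 2.87, 3.11 and 3.23 FPKM. All 5/6 Nx-HPi-Lp libraries lay above all Sham libraries, and all but the fourth also lay above every library of the other 5/6 Nx groups. The log2 fold change of Hey1 was 1.06 ± 0.23 (SE, adjusted p = 0.00503) against Sham, 0.73 ± 0.26 (adjusted p = 0.0932) against 5/6 Nx-HPi-Hp and 0.55 ± 0.21 (adjusted p = 0.0966) against 5/6 Nx-LPi-Lp. Fitted with all 16 libraries together, the difference from 5/6 Nx-HPi-Hp passed (0.76, adjusted p = 0.0230).

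Hes1, a repressor that many signals besides Notch induce (ENSMUSG00000022528, chromosome 16, 30064384 to 30067796, plus strand), did not pass in any comparison. It ranged from 9.56 to 17.7 FPKM in Sham, 15.1 to 20.3 in 5/6 Nx-HPi-Lp, 16.6 to 20.2 in 5/6 Nx-HPi-Hp and 9.39 to 26.2 in 5/6 Nx-LPi-Lp libraries. Its log2 fold change was 0.17 ± 0.19 (SE, adjusted p = 0.509) against Sham, -0.15 ± 0.15 (adjusted p = 0.541) against 5/6 Nx-HPi-Hp and 0.13 ± 0.30 (adjusted p = 0.786) against 5/6 Nx-LPi-Lp.

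The makeup of the targets therefore differed between groups. Summed over the 4 targets, the level was 70.6 to 97.6 FPKM in Sham, 30.2 to 44.2 in 5/6 Nx-HPi-Lp, 47.3 to 81.6 in 5/6 Nx-HPi-Hp and 48.0 to 90.5 in 5/6 Nx-LPi-Lp libraries. Heyl made up 61.9% ± 1.48 (SD, n = 4) of this sum in Sham, 22.2% ± 1.23 in 5/6 Nx-HPi-Lp, 47.8% ± 9.80 in 5/6 Nx-HPi-Hp and 53.5% ± 2.71 in 5/6 Nx-LPi-Lp mice. Hes1 made up 16.7% ± 2.14, 48.5% ± 3.39, 31.0% ± 5.22 and 23.2% ± 4.42 in the same order, and its share in every 5/6 Nx-HPi-Lp library was above that in any other. The Hes1 shares restate the levels given above, since Hes1 itself did not pass in any comparison while the sum was lower. The share of Hey1 went from 2.54% ± 0.503 in Sham to 13.5% ± 3.74 in 5/6 Nx-HPi-Lp mice.

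**Figure D3:**
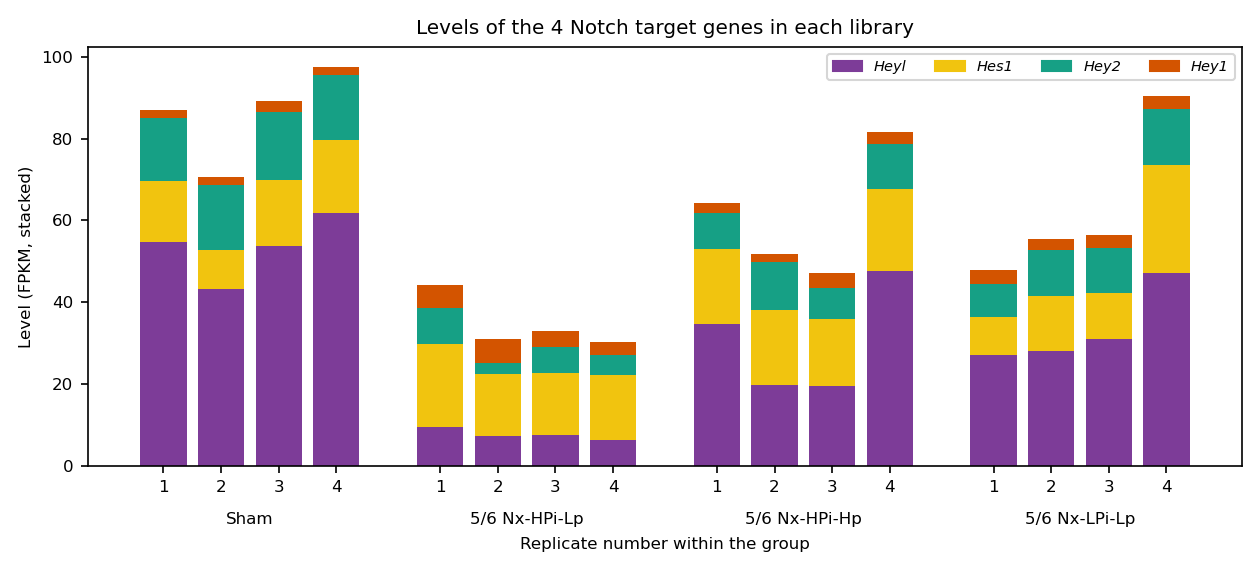
Stacked FPKM of Heyl, Hes1, Hey2 and Hey1 in each of the 16 libraries, with 1 bar per library from a base of 0 FPKM. Heyl fills most of each Sham bar and 20.8% to 23.3% of each 5/6 Nx-HPi-Lp bar, where Hes1 is the largest part.

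Ordered by mean FPKM, which compares genes per length, Heyl came first in Sham mice at 53.4, followed by Hey2 (15.98), Hes1 (14.5), Jag1 (10.9) and Notch2 (10.5), whose library ranges overlapped from one to the next. Notch3 (7.03) followed without overlap, and after a gap Jag2 (2.50), Hey1 (2.18), Dll4 (2.04) and Notch1 (1.37) overlapped in turn. The 5/6 Nx-HPi-Lp order began with Hes1 (16.7), Jag1 (10.7) and Heyl (7.66), with no overlap from one to the next. Heyl overlapped with Notch3 (6.36), and Notch3, Dll4 (6.20), Jag2 (5.83), Notch2 (5.65), Hey2 (5.62) and Hey1 (4.63) then lay close together with overlapping ranges, and Notch1 (1.86) came last. Heyl was again first in 5/6 Nx-HPi-Hp (30.3) and in 5/6 Nx-LPi-Lp mice (33.4 FPKM), and Hes1 second, at 18.4 and 15.1 FPKM, with overlap between both genes in the first group and none in the second.

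The other 5/6 Nx groups were also set against Sham, in comparisons that share the Sham libraries with the one above and that differ in a nutrient as well as in surgery. In 5/6 Nx-HPi-Hp mice, 2 of the 10 genes were DEGs, both upregulated, where 12.2% of 15882 genes were DEGs (9.41% upregulated). By adjusted p alone 3 passed, against 31.4% of all genes, and the libraries did not overlap for 3 (Jag2, Hey2 and Notch2), against 33.4%. They were Jag2 (1.29 ± 0.21, SE, adjusted p = 0.00939) and Dll4 (1.14 ± 0.28, adjusted p = 0.0166), and Dll4 did not pass without Sham replicate 2 (1.06, adjusted p = 0.0555). Hey2 fell by less than 2-fold (-0.72 ± 0.14, adjusted p = 0.0102). Heyl was at -0.82 ± 0.29 (adjusted p = 0.0555) and Notch2 at -0.51 ± 0.18 (adjusted p = 0.0516), and without 5/6 Nx-HPi-Hp replicate 4 both passed, Heyl at -1.13 (adjusted p = 0.00336) and Notch2 at -0.61 (adjusted p = 0.0212). With all libraries kept, Heyl passed in 7 of 11 alternatives and Notch2 in 4 of 11, among them DESeq2 (adjusted p = 0.0197 and 0.0286) and the fit of 16 libraries (adjusted p = 0.0272 and 0.0251). Replicate 4 had the highest summed level of smooth muscle markers of its group, 8737 FPKM against 2187 to 3885, the highest Heyl and the lowest Dll4. Whether its marker level had a part in the result was not tested.

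In 5/6 Nx-LPi-Lp mice, 0 of the 10 genes were DEGs by edgeR where 10.9% of 16071 genes were. With adjusted p alone, 5 of 10 passed, against 31.8% of all genes, and all of them by less than 2-fold, 3 higher (17.3% of all genes) and 2 lower (14.5%). The libraries did not overlap for 2 of the 10, Jag2 and Hey2, against 34.0% of all genes. Jag2 (0.85 ± 0.17, SE, adjusted p = 0.00651), Dll4 (0.93 ± 0.27, adjusted p = 0.0255) and Hey1 (0.55 ± 0.17, adjusted p = 0.0348) were higher, and Hey2 (-0.52 ± 0.15, adjusted p = 0.0247) and Heyl (-0.66 ± 0.20, adjusted p = 0.0287) lower. Of the 5, Jag2 also passed in every alternative and without any 1 library, while the other 4 each lost their call when all 16 libraries shared a fit (adjusted p = 0.0515 for Dll4, 0.113 for Hey1, 0.163 for Hey2 and 0.0825 for Heyl). These 4 calls also lay near the threshold, and none of the 4 fold changes turned sign when 1 library was left out. Of the 8 fits that leave out 1 library, Hey1 and Heyl each lost the call in 6, Dll4 in 5 and Hey2 in 4. Between 5/6 Nx mice on the HPi-Hp diet and those on the LPi-Lp diet, edgeR called 0 of the 10 genes and 0% of 15850 genes (1420 genes had an unadjusted p under 0.05, and DESeq2 called 79 DEGs), and the FPKM of the groups overlapped for each of the 10, where 4.93% of all genes did not overlap.

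For the comparisons with 5/6 Nx groups whose diet differs by design in protein or in phosphorus, the background was lower. The paper's diet compositions also differ in other ingredients, among them starch, sucrose and calcium carbonate. Against 5/6 Nx-HPi-Hp mice, which differ in protein, 1 of 10 genes was a DEG where 8.12% of 16198 genes were DEGs (3.11% downregulated), and 1 of 10 passed by adjusted p alone against 13.0% of all genes. The 5/6 Nx-HPi-Lp libraries did not overlap with them for 2 of 10 genes, Heyl and Jag1, against 20.6% of all genes. Against 5/6 Nx-LPi-Lp mice, which differ in phosphorus, 1 of 10 was a DEG against 11.9% of 16253 genes (3.98% downregulated), and 2 of 10 passed, both lower, against 20.1% of all genes (8.96% lower). These 2, Heyl and Notch2, were also the genes without overlap, against 24.6% of all genes. These shares lie near those of all genes tested, so neither comparison sets the 10 genes apart, and Heyl was the member that carried both. All comparisons of 5/6 Nx-HPi-Lp mice share the same 4 libraries.

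Because smooth muscle markers and some endothelial markers differed between groups, Notch3, Heyl and Dll4 were also expressed relative to markers of the same library. For Notch3 and Heyl, this was log2(FPKM + 0.1) minus the mean of the same quantity over the smooth muscle markers. Dll4 was set likewise against the endothelial markers, which did not move as a set. Of these 10, 5 rose, 1 fell and 4 did not pass against Sham. Against 5/6 Nx-HPi-Hp 0 passed and against 5/6 Nx-LPi-Lp 1 passed. Notch3 was 5.17 ± 0.21 (SD, n = 4) log2 units below the smooth muscle mean in Sham mice. The distance was 2.82 ± 0.63 in 5/6 Nx-HPi-Lp, 4.24 ± 0.89 in 5/6 Nx-HPi-Hp and 4.24 ± 0.59 in 5/6 Nx-LPi-Lp mice. Thus Notch3 lay 2.35 log2 units higher relative to these markers than in Sham mice, without overlap, with p = 0.0286 in a two-sided exact permutation test, the smallest that 4 against 4 libraries can give, and 0.129 after adjustment over the 9 tests of this kind. The difference was 1.42 against 5/6 Nx-HPi-Hp (exact p = 0.0857, adjusted p = 0.193) and 1.42 against 5/6 Nx-LPi-Lp (exact p = 0.0571, adjusted p = 0.171), where the groups overlapped. The difference from Sham restates values given above, since the markers fell (median log2 fold change -2.80) while Notch3 did not pass (-0.18). It is no separate result on Notch3. With group means taken out, r between Notch3 and the marker mean was 0.164 over 16 libraries.

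Relative to the mean of the smooth muscle markers, the Heyl libraries of all groups overlapped. Heyl lay 2.27 ± 0.33 (SD, n = 4) log2 units below their mean in Sham, 2.50 ± 0.50 in 5/6 Nx-HPi-Lp, 2.35 ± 0.49 in 5/6 Nx-HPi-Hp and 2.18 ± 0.23 in 5/6 Nx-LPi-Lp mice. The differences of 5/6 Nx-HPi-Lp mice were -0.23 against Sham (exact permutation p = 0.457), -0.15 against 5/6 Nx-HPi-Hp (exact p = 0.686) and -0.32 against 5/6 Nx-LPi-Lp (exact p = 0.314), and their adjusted p ran from 0.471 to 0.686. These differences depended on how the markers were summarized. With Myh11 alone in place of the list they turned positive, at 0.27, 0.36 and 0.16, and with the median of the list the difference from Sham was -0.72 (adjusted p = 0.0857). Dll4 lay 2.67 ± 0.23 log2 units below the endothelial mean in Sham, 1.79 ± 0.24 in 5/6 Nx-HPi-Lp, 1.98 ± 0.39 in 5/6 Nx-HPi-Hp and 2.17 ± 0.46 in 5/6 Nx-LPi-Lp mice. Its difference from Sham was 0.88 without overlap (exact permutation p = 0.0286, adjusted p = 0.129) but 0.11 (adjusted p = 0.629) relative to Cdh5 alone, and those from the other groups were 0.19 (exact p = 0.514) and 0.38 (exact p = 0.2). None of the 9 differences passed after adjustment. Even full separation of 4 from 4 libraries gives an exact p of 0.0286, which became 0.129 for Notch3 and Dll4 against Sham. A pass would have needed most of the 9 tests at that smallest p, so the adjusted values cannot decide on the separated differences. A part of cell content in the fold changes of Heyl, Notch3 and Dll4 cannot be told apart from a change within cells.

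**Figure D4:**
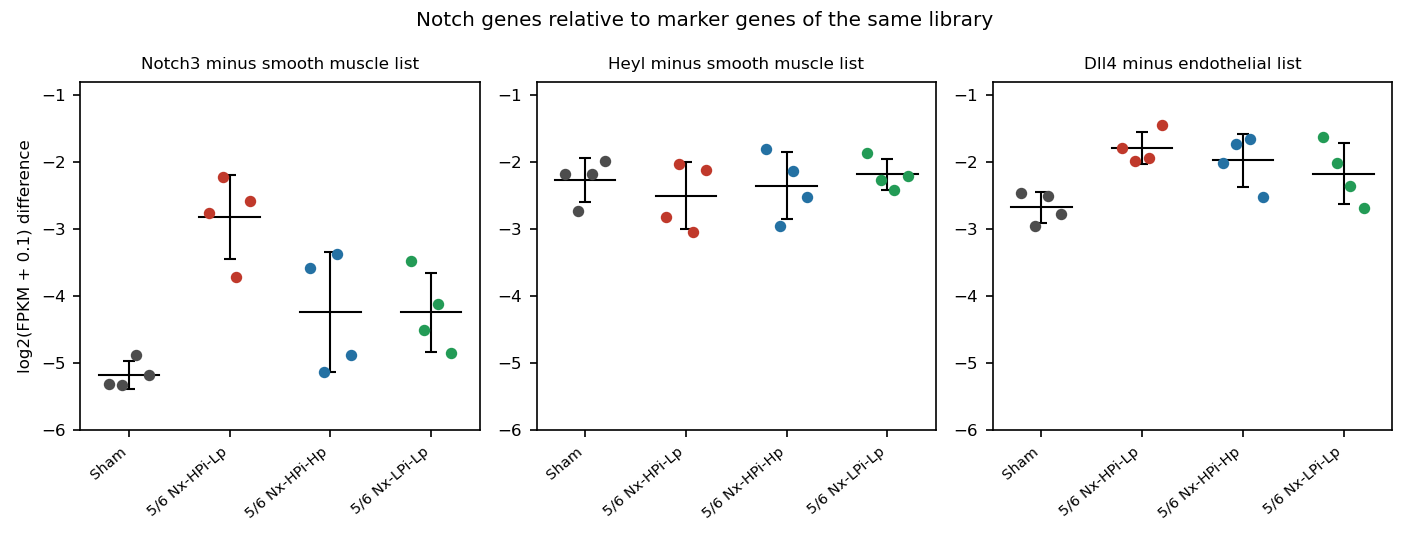
Log2(FPKM + 0.1) of Notch3 and Heyl minus the mean of 7 smooth muscle markers, and of Dll4 minus the mean of 10 endothelial markers, with 1 point per library, the group mean and 1 SD (n = 4). Notch3 is nearer to its markers in 5/6 Nx-HPi-Lp (mean -2.82) than in Sham (mean -5.17), while the Heyl means stay between -2.50 and -2.18.

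The genes most like Notch3 and Dll4 across the 16 libraries were looked for among 12936 genes outside the lists, by Pearson's r of log2 values. Those nearest to Notch3 were Ccr10 (r = 0.759), a chemokine receptor, Pskh1 (r = 0.755) and Zfp3 (r = 0.754). Those nearest to Dll4 were Gimap6 (r = 0.960), Slc1a3 (r = 0.952), a glutamate transporter, and Mgat4b (r = 0.950), a glycosyltransferase. With the group means taken out, r was 0.734 to 0.793 for the Notch3 set and 0.882 to 0.888 for the Dll4 set. These are descriptions over libraries that share groups, without a test.

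Other genes of the pathway were counted by function in lists of 51 genes, of which 45 were tested against Sham, 45 against 5/6 Nx-HPi-Hp and 44 against 5/6 Nx-LPi-Lp. Against Sham, 7 rose and 11 fell by adjusted p, or 18 of 45, beside 42.9% of all genes, with a median log2 fold change of -0.19. DEGs were 5 upregulated and 1 downregulated, beside 15.0% and 7.18% of all genes. In the list of enzymes that cut the receptor, 1 of 10 rose and 2 fell. Among the nuclear partners of the receptor (Rbpj, Maml1 and others), 0 of 11 rose and 4 fell. By adjusted p, 22.7% of all genes rose and 20.2% fell. No DEG was found in either list.

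The upregulated pathway gene with the largest change was Neurl1b, an E3 ligase that acts on Notch ligands, at 0.405 to 0.470 FPKM in Sham and 0.929 to 2.00 in 5/6 Nx-HPi-Lp libraries (log2 fold change 1.74 ± 0.28, SE, adjusted p = 0.000933). Nrarp, a feedback inhibitor that Notch induces, was at 0.486 to 0.900 and 1.69 to 2.55 FPKM (1.62 ± 0.28, adjusted p = 0.00135). Mfng, a Fringe enzyme that adds sugar to the receptors and so tunes their choice of ligand, was at 3.33 to 5.71 and 5.62 to 15.01 FPKM, with an overlap through 5/6 Nx-HPi-Lp replicate 3 (1.33 ± 0.29, adjusted p = 0.00453). Notch4, the endothelial receptor outside the 10 and named here after its values were seen, was at 3.07 to 3.91 FPKM in Sham and 6.20 to 8.66 FPKM in 5/6 Nx-HPi-Lp libraries (1.09 ± 0.12, adjusted p = 0.000137). Its mean in 5/6 Nx-HPi-Lp mice, 7.43 FPKM, was above those of Notch1, Notch2 and Notch3, with ranges that overlapped for Notch2 and Notch3. Notch4 also rose against 5/6 Nx-LPi-Lp (0.65 ± 0.16, adjusted p = 0.0226) but did not pass against 5/6 Nx-HPi-Hp (0.52 ± 0.20, adjusted p = 0.116). Efnb2, an arterial ephrin and Notch target, was the downregulated one, at 11.2 to 13.6 and 4.48 to 5.61 FPKM (-1.28 ± 0.11, adjusted p = 3.83e-05). The last DEG against Sham was Lfng, another Fringe gene (1.10 ± 0.28, adjusted p = 0.0103). Among the 45 genes, the Sham and 5/6 Nx-HPi-Lp libraries did not overlap for 18, beside 41.8% of all genes. Neurl1b, Nrarp, Notch4, Lfng and Efnb2 were among them. Targets of the pathway thus went both ways, with Hey1 and Nrarp up and Heyl, Hey2 and Efnb2 down.

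**Figure D5:**
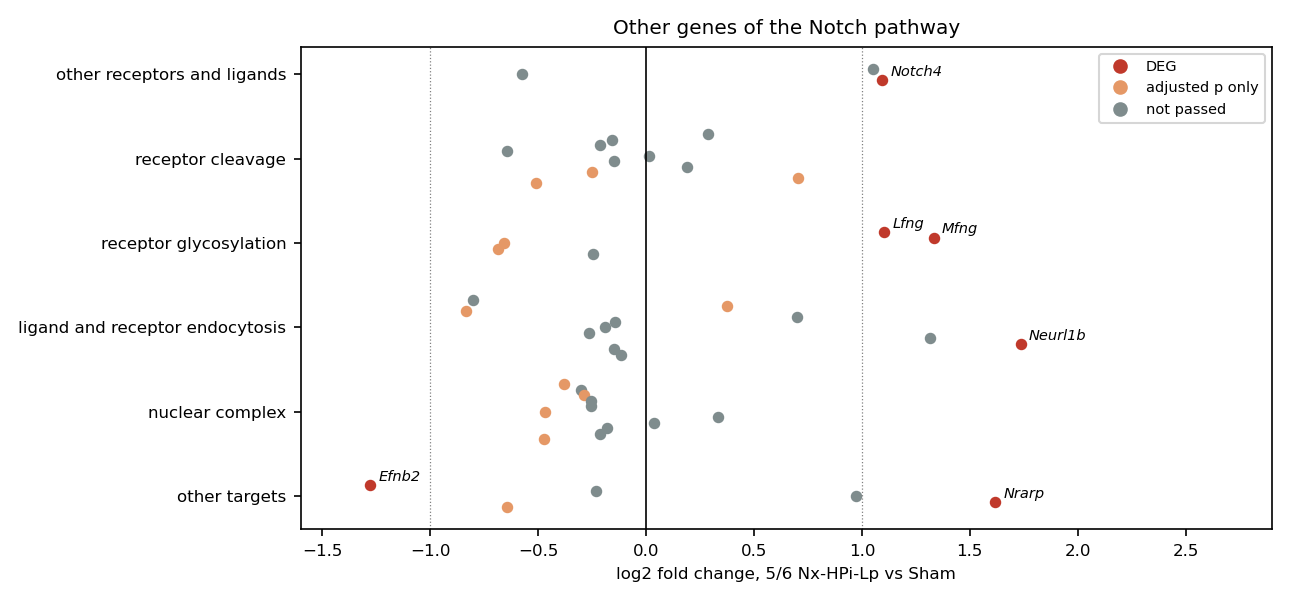
Log2 fold changes in 5/6 Nx-HPi-Lp against Sham mice of the 45 tested genes of the pathway outside the 10, by function, with 1 point per gene, colored by its call and named where it was a DEG. Neurl1b (1.74) and Efnb2 (-1.28) mark the ends, and most genes lie within a 2-fold change.

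Against 5/6 Nx-HPi-Hp mice, 3 of the 45 genes rose and 4 fell by adjusted p, beside 13.0% of all genes. Beside 5.01% upregulated and 3.11% downregulated DEGs among all genes, 1 of the 45 was upregulated and 3 were downregulated. These were Dtx4, a Deltex ligase (1.17 ± 0.30, SE, adjusted p = 0.0335), and Dtx3, a related ligase (-1.18 ± 0.22, adjusted p = 0.0116), Maml2, a Mastermind coactivator (-1.14 ± 0.20, adjusted p = 0.00901), and Mib2, a ligase of Notch ligands (-1.06 ± 0.26, adjusted p = 0.0269). Of all groups, 5/6 Nx-HPi-Hp mice had the highest means of Dtx3, Maml2 and Mib2 (146, 9.92 and 47.6 FPKM). Sham means were 112, 6.09 and 26.7 FPKM, and 5/6 Nx-HPi-Lp means 64.3, 4.49 and 22.7 FPKM. Against Sham, Dtx3 (-0.83, adjusted p = 0.00970) and Maml2 (-0.47, adjusted p = 0.0118) fell by less than 2-fold, and Mib2 did not pass (-0.26, adjusted p = 0.243). Against 5/6 Nx-LPi-Lp mice, 4 of the 44 genes rose and 3 fell beside 20.1% of all genes. The 1 DEG, beside 11.9% of all genes, was again Dtx4 (1.84 ± 0.16, adjusted p = 0.000522). Its level was 4.37 to 4.96 FPKM in 5/6 Nx-HPi-Lp, 1.31 to 3.65 in 5/6 Nx-HPi-Hp, 1.06 to 1.56 in 5/6 Nx-LPi-Lp and 1.36 to 4.05 in Sham libraries. The 5/6 Nx-HPi-Lp libraries overlapped with none of the other groups, but Dtx4 did not pass against Sham (0.70 ± 0.27, adjusted p = 0.0571). Of all genes, 41.8% did not overlap against Sham, 20.6% against 5/6 Nx-HPi-Hp and 24.6% against 5/6 Nx-LPi-Lp. Both nutrient comparisons thus shared Dtx4 and the 5/6 Nx-HPi-Lp libraries behind it.

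Markers of further cell types also differed between the groups, and their part in the Notch genes was not tested. Against Sham, 7 of 7 macrophage, 3 of 6 fibroblast, 4 of 6 adipocyte, 5 of 5 Schwann cell and 3 of 3 tested sympathetic neuron markers were upregulated in 5/6 Nx-HPi-Lp mice. Their summed levels there were 246 to 843, 702 to 3241, 867 to 1489, 17.5 to 153 and 13.8 to 227 FPKM, against 86.5 to 118, 406 to 576, 220 to 489, 7.44 to 11.4 and 7.81 to 12.02 FPKM in Sham. Of the endothelial markers, 3 of 10 were upregulated, Egfl7 (0.99, adjusted p = 0.00112) and Tie1 (0.67, adjusted p = 0.00250) rose by less than 2-fold, and Pecam1 (-0.55, adjusted p = 0.0114) fell by less than 2-fold. Thymocyte and T cell markers were downregulated for 6 of 8 tested (5.43 to 35.4 FPKM in Sham and 1.01 to 3.24 in 5/6 Nx-HPi-Lp, with Rag2 and Ptcra at 0 in the latter). B cell markers (1.70 to 13.3 FPKM over both groups) had no DEG, kidney tubule markers stayed below 1 FPKM in sum, and heart muscle and skeletal muscle markers reached 803 and 184 FPKM in single 5/6 Nx-LPi-Lp libraries. Some of these differences from Sham were shared by the other 5/6 Nx groups. In 5/6 Nx-HPi-Hp mice, 6 of 6 adipocyte, 5 of 5 Schwann cell, 2 of 7 macrophage and 0 of 6 fibroblast markers were upregulated. In 5/6 Nx-LPi-Lp mice these were 6, 4, 0 and 0. Adipocyte sums were 570 to 2650 and 1094 to 3783 FPKM, and heart muscle markers reached 269 FPKM in 5/6 Nx-HPi-Hp libraries.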

How the data were processed

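Counts per gene and FPKM of 16 aorta libraries were used. The deposited counts were made by the authors from reads aligned to mm10, with featureCounts 1.5.0-p3, and the deposited FPKM were computed by the authors from these counts and gene lengths. These FPKM were not scaled by the total counts of each library. Their denominator followed a median-ratio size factor over genes, at a ratio of 1.0 in each of the 16 libraries. Use of strand in counting is not given in the sources used here. Samples were grouped by their labels, and each library is 1 mouse. The 10 genes and all lists were chosen with earlier results of these data known.

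Fold changes and adjusted p (Benjamini-Hochberg over all genes tested) came from the quasi-likelihood test of edgeR 4.0.16 in R 4.3.3 on the counts of the 8 libraries compared, after filterByExpr and TMM scaling. Genes passed if their adjusted p was 0.05 or less, and were DEGs if the change also reached 2-fold. Fold changes are not on the FPKM scale. Levels are FPKM, which the text compares between genes since they are per length. Relative levels used log2(FPKM + 0.1) and two-sided exact permutation tests over 70 splits, adjusted over 9 tests (SciPy 1.17.1). Depth was 13659525 to 57276915 counts per library. No pair of libraries of a group was a copy (lowest chi-square per gene 21.9). The code was tested on simulated data.

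All 10 genes are named. Other pathway genes are named if a DEG in a comparison of 5/6 Nx-HPi-Lp mice, at most the 4 of largest change in each, and likeness names the 3 genes of highest r. Outside this rule, Notch4 and Lfng, also DEGs against Sham, were named after their values were seen. The likeness search used log2(FPKM + 1) of genes with a mean FPKM above 1. Tried in addition were DESeq2 1.42.0, scaling by RLE or by total counts, limma 3.58.1 on FPKM, other filters and thresholds, mitochondrially encoded genes left out, all 16 libraries in one fit, the replicate block and each library left out. In none of 52 sets of 4 values, with 1 value per library of a group, did a value stand apart by Dixon's ratio (critical value 0.829). With 4 values this ratio flags only extreme cases, so it does not show that no library was unusual.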

Additional observations from a re-analysis of the deposited data

How the results depend on the processing

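Of 950 values of the 10 genes under alternatives, over 50 gene-by-comparison results, 865 kept their direction and their side of the threshold, 40 lost their call, 30 gained one and 15 changed sign. The 15 belonged to genes that had not passed: Hes1 (LPi-Lp against Sham) at -0.15 with total-count scaling, -0.020 with limma and a pseudocount of 1 (with or without a filter), -0.025 with a pseudocount of 0.1, and -0.00548 with the replicate block, and Notch3 with total-count scaling at -0.015 (HPi-Hp against Sham) and -0.064 (LPi-Lp against Sham). With 1 library left out, Hes1 ranged from -0.0093 to 0.26 (HPi-Lp against Sham), from -0.062 to 0.57 (HPi-Lp against LPi-Lp) and from -0.34 to 0.25 (LPi-Lp against Sham), Jag2 from -0.20 to 0.041 (HPi-Lp against HPi-Hp) and Notch1 from -0.15 to 0.077 (HPi-Hp against Sham).

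Against Sham, the 5 DEGs of the 10 genes in 5/6 Nx-HPi-Lp mice became 3 with limma on log2(FPKM + 1), with or without a filter, and 4 to 5 with 1 library left out, and with total-count scaling 2 were upregulated and 3 downregulated. The 1 DEG against 5/6 Nx-HPi-Hp was 1 to 2 with 1 library left out (2 without 5/6 Nx-HPi-Lp replicate 1), and the 1 against 5/6 Nx-LPi-Lp 1 to 2 (2 without the same library) and 2 with no fold threshold. The 2 DEGs of HPi-Hp against Sham became 1 with total-count scaling and with limma on log2(FPKM + 1), with or without a filter, and 1 to 3 with 1 library left out (1 without Sham replicate 2 or 5/6 Nx-HPi-Hp replicate 3). The 0 of LPi-Lp against Sham became 5 with no fold threshold and 0 to 1 with 1 library left out (1 without Sham replicate 3 or 5/6 Nx-LPi-Lp replicate 4). With 1 marker in place of the list, the relative differences of Heyl (over Myh11) were 0.27, 0.36 and 0.16 against Sham, HPi-Hp and LPi-Lp, and those of Dll4 (over Cdh5) were 0.11, -0.30 and -0.14 in the same order. With the median of the list, the difference of Heyl from Sham was -0.72. Leaving out 1 library, the relative difference of Heyl from HPi-Hp ran from -0.35 to 0.032. The cause of these shifts was not tested.

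Replicate numbers did not pair the mice (over 24 pairs of same-numbered libraries, correlations of deviations from the group means ran from -0.201 to 0.409, with 4 over 0.1, and 5 were best with their own number). The fit with the replicate block left the DEG counts of the 10 genes at 5, 1, 1, 2, 0 and 0, and gave an adjusted p of 0.0965 for Notch2 against 5/6 Nx-LPi-Lp and of 0.0335 for Heyl in HPi-Hp against Sham. Over all genes, it gave 371 DEGs in place of 1315 against 5/6 Nx-HPi-Hp, 1271 in place of 1931 against 5/6 Nx-LPi-Lp, and 10 in place of 0 between the HPi-Hp and LPi-Lp diets after 5/6 Nx. DESeq2 gave 2095 DEGs against 5/6 Nx-HPi-Hp, and limma on log2(FPKM + 1) with and without a filter gave 783 and 468 there, 1068 and 769 against 5/6 Nx-LPi-Lp (1931 by edgeR), 2057 and 1886 for HPi-Lp against Sham (3666), 878 and 438 for HPi-Hp against Sham (1932) and 870 and 774 for LPi-Lp against Sham (1748). Total-count scaling moved the median log2 fold change of all genes against Sham to -0.14 (HPi-Lp), -0.19 (HPi-Hp) and -0.22 (LPi-Lp), and the upregulated share of DEGs from 77.4% to 52.1% (HPi-Hp) and from 80.8% to 55.4% (LPi-Lp). With 4 mice a group, differences of the size of those in Notch1, Notch3 and Hes1 were within the reach of single libraries.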
